A study of Mus musculus with 6 samples.

Results

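Ly6G-high myeloid cells that bound the aptamer T1 were set against Ly6G-high myeloid cells that did not bind it, in 4 of the 6 sequenced samples of the series, 2 of each population. The cells came from subcutaneous CT26 tumours, an implanted mouse colon cancer line, in 2 BALB/C mice, and tumours had grown to 1800 mm3 before they were digested and sorted by flow cytometry. The T1-binding population was Ly6G-high and T1-positive, the T1-non-binding population was Ly6G-high and T1-negative, the labels class both as polymorphonuclear (PMN) cells, and neither carries a listed genotype or drug treatment. Each mouse gave 1 library of each population, so the libraries were paired by the mouse number in the labels and the change was read inside each mouse. Age, sex, the other antigens of the gates and the purity of the sorts are not given in the sources used here. The T1-binding libraries held 27821970 and 24183878 counts in mouse 1 and mouse 2, and the T1-non-binding libraries held 23673055 and 28045025. A count of 0 allows a level of up to 0.107 to 0.127 CPM in these libraries (CPM, counts scaled to the size of the library), a limit that covers counting error only.

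An aptamer is a short folded nucleic acid selected to stick to a target, here to the surface of cells. Ly6G is a surface antigen of mouse neutrophils, short-lived granulocytes that store enzymes and antimicrobial proteins in granules and supply themselves with energy largely by glycolysis. Macrophages are longer-lived cells that take up debris, remodel the surrounding matrix and handle lipids, iron and amino acids. In tumours the myeloid cells that carry neutrophil antigens are a mixture of maturation states, and RNA from any other cell caught in the gate is read together with theirs.

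Genes of the antigens used for sorting, or that mark lineages, serve as a check of the labels. Ly6g, which encodes the gated antigen, was at 8.66 and 8.12 CPM in T1-binding cells of mouse 1 and mouse 2, against 26.2 and 26.2 CPM in T1-non-binding cells. Both binding libraries were below both non-binding libraries, and Ly6g fell by 1.64 on the log2 scale (SE 0.14, adjusted p = 2.46e-11 by edgeR's quasi-likelihood test with mouse as a term). Itgam, the myeloid integrin CD11b, was abundant in every library, at 1892 and 1252 CPM in T1-binding cells and 1705 and 965 CPM in T1-non-binding cells. Its change passed the test at a log2 fold change of 0.26 (SE 0.10, adjusted p = 0.0373 by edgeR), but the populations overlapped across mice. The call was lost with RLE factors, and the sign turned when the T1-binding library of mouse 1 or the T1-non-binding library of mouse 2 was left out. Ptprc, the common leukocyte antigen CD45, fell by 0.48 on the log2 scale, with log2 ratios of -0.57 in mouse 1 and -0.39 in mouse 2. Emr1, a macrophage antigen also called Adgre1, was at 292 and 355 CPM in T1-binding cells and 146 and 159 CPM in T1-non-binding cells. Ly6c2, a monocyte antigen, was at 85.6 and 118 CPM in T1-binding cells and 89.8 and 99.1 CPM in T1-non-binding cells, and its change did not pass the test (log2 fold change 0.09, SE 0.10) except when scaled by library totals (0.30).

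Of the usual macrophage markers, 58 of 89 tested were called higher and 11 lower. Their summed levels were 89641 and 75866 CPM in T1-binding cells of mouse 1 and mouse 2 and 83925 and 61967 CPM in T1-non-binding cells. Among the usual neutrophil markers, 1 of 64 was called higher and 56 lower, with sums of 57267 and 32099 CPM against 107009 and 62643 CPM. Every gene described below moved beside these lists, and their part in it was not tested. In bulk RNA, fewer cells of a type and less RNA per cell cannot be told apart.

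Of 13419 genes tested, 1823 were called higher in T1-binding cells, which is 13.6%, and 1955 were called lower, which is 14.6% (edgeR quasi-likelihood F test with mouse as a term, adjusted p under 0.05). Each of these called genes had the same sign in both mice. The call depends on the pairing: with no mouse term the same test called 0 genes in either direction, with 1331 genes at an unadjusted p under 0.05 and a smallest adjusted p of 0.344. With mouse as a term on all 6 libraries it also called 0, with 2178 at an unadjusted p under 0.05. The paired fit on 4 libraries left 1 residual degree of freedom, so its error rests mainly on the spread shared across genes. The balance of directions depends on the scaling. Scaled by library totals, under which the median log2 fold change of all genes was 0.22 instead of 0.01, the same fit called 3545 higher and 1014 lower, and with RLE factors it called 1343 and 2174. Changes are given below with TMM scaling, relative to a median near 0.

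Inside single mice, 437 genes were at least 2-fold higher in T1-binding cells of mouse 1 and 452 in mouse 2. The genes shared by both mice numbered 156, which is 1.16% of genes tested, 35.7% of those of mouse 1 and 34.5% of those of mouse 2. At least 2-fold lower were 684 genes in mouse 1 and 604 in mouse 2, with 298 shared, which is 2.22% of genes tested, 43.6% of those of mouse 1 and 49.3% of those of mouse 2. Across all tested genes, which are not independent replicates, the log2 ratios of the 2 mice correlated at r = 0.57, and 9704 genes (72.3%) had the same sign. Genes at least 2-fold apart with opposite signs in the 2 mice numbered 29. None of them was called, but the paired test looks for a shared change and could hardly call such genes. These counts depend on the scaling and on the depth of the genes: scaled by library totals, 348 genes were at least 2-fold higher and 130 at least 2-fold lower in both mice, and among genes with at least 50 counts in 2 libraries the opposite signs numbered 1.

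**Figure D1:**
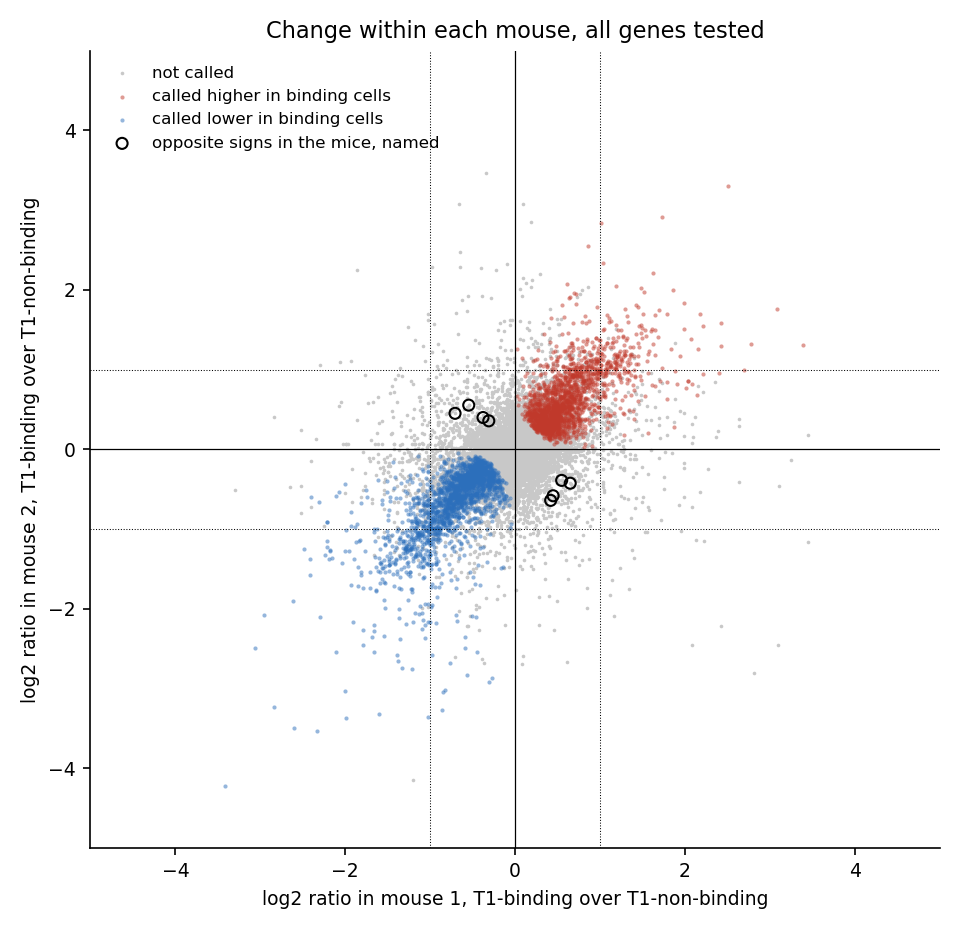
Log2 ratio of T1-binding over T1-non-binding Ly6G-high cells in mouse 1 (x axis) and mouse 2 (y axis), 1 point per tested gene, with dotted lines at 2-fold. The 1823 genes called higher lie in the upper right and the 1955 called lower in the lower left, while circles mark 8 named genes whose sign differs between the mice.

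Outside the usual macrophage and neutrophil markers, 48 called genes with at least 10 CPM were 2-fold or more higher in each mouse, and 100 were 2-fold or more lower. The 15 of each direction with the largest change in the mouse that changed less were examined, and 14 higher and 15 lower genes are described here. Among the 30 examined, no ranges overlapped between the populations: both T1-binding libraries lay above both T1-non-binding libraries in the 15 higher genes and below them in the 15 lower genes, a separation that 23.5% and 16.6% of all tested genes also showed. Fitted log2 fold changes ran from 1.19 to 1.64 in the higher genes and from -1.60 to -1.27 in the lower genes, with standard errors of 0.09 to 0.16 and adjusted p-values no larger than 2.6e-08. All 30 stayed called under the other scalings, filters and tools tried on the 4 libraries with mouse as a term, and none was called without that term or over all 6 libraries. The 30 were picked as called genes with large changes in each mouse. Their separation, small p-values and lasting calls follow in part from that choice and are no separate evidence.

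The higher genes included secreted enzymes and matrix proteins. Mmp12, the macrophage elastase (chromosome 9, 7344381 to 7369499 on mm10), was the most abundant of the 15, at 1990.1 and 879.7 CPM in T1-binding cells of mouse 1 and mouse 2 against 801 and 336 CPM in T1-non-binding cells. Mouse 1 had more than mouse 2 in both populations, while the log2 ratios inside the mice were 1.31 and 1.39. Mmp13, a collagenase, was at 467 and 291 CPM in T1-binding cells and 170.1 and 99.7 CPM in T1-non-binding cells. Col14a1, a fibril-associated collagen, was at 25.6 and 27.8 CPM in T1-binding cells and 9.02 and 9.63 CPM in T1-non-binding cells. Gdf3, a ligand of the TGF-beta family, was at 22.9 and 33.6 CPM in T1-binding cells and 9.39 and 14.6 CPM in T1-non-binding cells. Of 13 tested fibroblast markers, 0 were called higher and 4 (30.8%) lower by the same edgeR test, beside 13.6% and 14.6% of all genes. Their sums were 528 and 823 CPM in T1-binding cells of mouse 1 and mouse 2 and 693 and 1012 CPM in T1-non-binding cells. The part of fibroblasts in the differences of this paragraph was not tested.

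Surface receptors formed another group of the 15. Fcrls, an Fc receptor-like protein of mouse macrophages and microglia (chromosome 3, 87250758 to 87263738), was at 129.6 and 104 CPM in T1-binding cells, compared with 46.2 and 37.5 CPM in T1-non-binding cells. Its log2 ratios of 1.49 and 1.46 in the 2 mice were close to each other. Colec12, a collectin that acts as a scavenger receptor, was at 263 and 194 CPM in T1-binding cells and 114 and 85.6 CPM in T1-non-binding cells. Lifr, a signalling subunit of the receptor for leukemia inhibitory factor, was at 27.9 and 27.2 CPM in T1-binding cells and 12.3 and 11.8 CPM in T1-non-binding cells.

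Transporters and a channel were also among them. Slco2b1, an organic anion transporter, was at 18.9 and 23.6 CPM in T1-binding cells, compared with 6.90 and 6.80 CPM in T1-non-binding cells, with log2 ratios of 1.45 and 1.79. Slc7a8, a carrier of neutral amino acids, was at 188 and 125 CPM in T1-binding cells and 82.8 and 49.0 CPM in T1-non-binding cells. Abca9, a transporter of the lipid-linked ABCA subfamily, was at 38.1 and 32.0 CPM in T1-binding cells and 15.7 and 11.9 CPM in T1-non-binding cells. Kcnk13, a tandem-pore potassium channel (chromosome 12, 99964499 to 100062682), was at 31.7 and 25.6 CPM in T1-binding cells and 12.1 and 10.4 CPM in T1-non-binding cells.

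Of the others described, Tbxas1 and Myo7a act inside the cell. Tbxas1, the enzyme that makes thromboxane, was at 96.5 and 98.1 CPM in T1-binding cells, compared with 41.2 and 42.4 CPM in T1-non-binding cells, so the mice differed little within a population. Myo7a, an unconventional myosin, was at 31.9 and 32.0 CPM in T1-binding cells and 13.7 and 12.02 CPM in T1-non-binding cells. Nxpe5 was at 95.3 and 82.7 CPM in T1-binding cells and 33.9 and 31.4 CPM in T1-non-binding cells. Exons of Tbxas1, Slco2b1 and Mmp12 overlap annotated genes on the opposite strand, and since the strand used in counting is not given, their reads could not be told apart from those of the partner.

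Among the lower genes, the highest level was that of Dedd2, a nuclear protein with a death effector domain, at 179 and 93.6 CPM in T1-binding cells, compared with 494 and 238 CPM in T1-non-binding cells. Sh2d3c, an adaptor that joins surface receptors to small GTPases, was at 131 and 70.9 CPM in T1-binding cells and 343 and 205 CPM in T1-non-binding cells. Ciart, a repressor of the circadian clock (chromosome 3, 95878503 to 95882251), was at 76.7 and 33.8 CPM in T1-binding cells and 225 and 94.7 CPM in T1-non-binding cells. In all 3 genes mouse 1 was above mouse 2 in both populations, and the ratio inside each mouse was similar, for Ciart -1.55 and -1.49 on the log2 scale.

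Several lower genes act at membranes and organelles. Rragd, a GTPase that relays nutrient signals at lysosomes, was at 14.4 and 7.51 CPM in T1-binding cells and 43.1 and 20.5 CPM in T1-non-binding cells. Mreg, melanoregulin, which takes part in organelle transport, was at 69.6 and 31.2 CPM in T1-binding cells and 186 and 84.1 CPM in T1-non-binding cells. Rab15, a GTPase of endosomes, was at 13.4 and 7.41 CPM in T1-binding cells and 35.4 and 22.1 CPM in T1-non-binding cells. Tbc1d10c, known as carabin, a negative regulator of calcineurin and Ras signalling, had log2 ratios of -1.30 in both mice. Cldn1, a tight junction protein, was at 41.1 and 16.4 CPM in T1-binding cells and 122 and 50.9 CPM in T1-non-binding cells. Of the 9 tested tumour epithelial markers, 1 was called higher and 4 lower. Their sums were 142 and 176 CPM in T1-binding cells of mouse 1 and mouse 2 and 164 and 239 CPM in T1-non-binding cells. The part of these markers in the Cldn1 difference was not tested.

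Signals and receptors were among the lower genes too. Prok2, the secreted ligand prokineticin 2 (chromosome 6, 99711299 to 99726392), was at 18.6 and 10.4 CPM in T1-binding cells and 58.5 and 26.7 CPM in T1-non-binding cells. Klra17, an inhibitory receptor of the Ly49 family, was at 17.9 and 15.2 CPM in T1-binding cells and 54.1 and 40.9 CPM in T1-non-binding cells. Klra genes resemble each other closely, so reads may have been split between them.

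The remaining 5 lower genes follow. Ddit3, the stress transcription factor CHOP, was at 56.4 and 34.8 CPM in T1-binding cells and 138 and 83.1 CPM in T1-non-binding cells, and exons of Mars overlap it on the opposite strand. Trp53inp1, a p53-induced stress protein, was at 45.4 and 22.5 CPM in T1-binding cells and 127 and 58.4 CPM in T1-non-binding cells. Rnf144a, a ubiquitin ligase, Plcxd2 and RP24-458J4.2, a long intergenic noncoding RNA (ENSMUSG00000101517), had within-mouse log2 ratios between -1.61 and -1.27. Exons of Dedd2 and Sh2d3c also overlap annotated genes on the opposite strand, and those of Tbc1d10c a gene on the same strand, with the same limit on their reads.

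**Figure D2:**
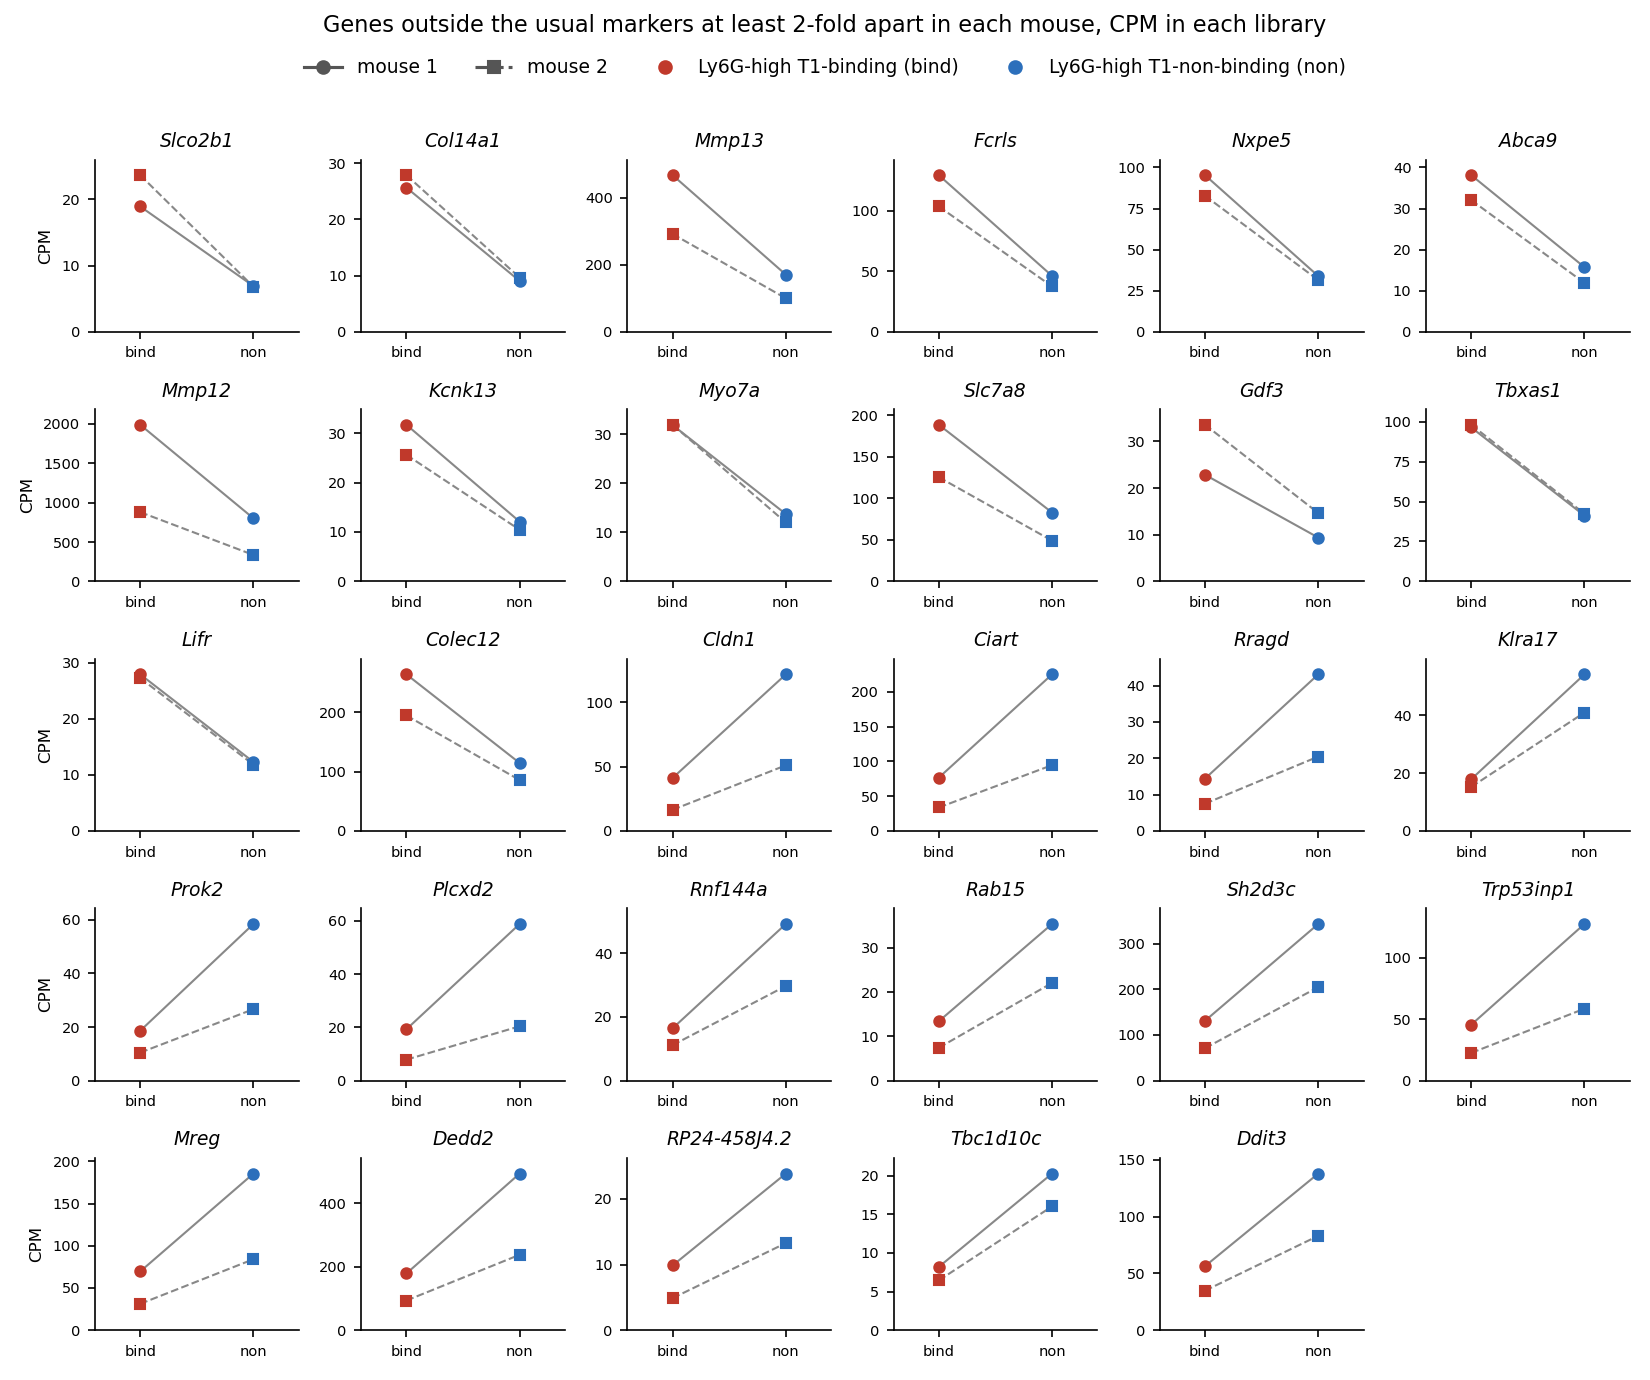
CPM of 14 higher and 15 lower genes in each library, T1-binding on the left and T1-non-binding on the right of each panel, with a line joining the libraries of a mouse (circles and solid lines for mouse 1, squares and broken lines for mouse 2). Every line of the first 14 panels slopes down to the T1-non-binding library and every line of the other 15 slopes up, and several lower genes, such as Ciart at 225 and 94.7 CPM in T1-non-binding cells, stood higher in mouse 1 than in mouse 2.

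Promoter sequence was read for these genes from RefSeq (GRCm38.p6, windows of 250 bases before and 50 bases after an annotated start). Fcrls and Tbxas1 are shown as examples of the higher genes; their windows hold both the core letters of PU.1 sites (GAGGAA), a factor that specifies myeloid cells, and the core letters of sites of MAF factors (TGCTGA), which are linked to macrophages. Ciart is shown as an example of the lower genes; its window holds the E-box CACGTG, read by clock factors and by MITF and TFE factors. They are not alone in this, and among the named genes the letters occur in both directions. The window of Abca9 holds the PU.1 and MAF letters too, overlapping each other, and those of Prok2 and RP24-458J4.2 hold CACGTG. PU.1 and MAF letters are also found in windows of the higher gene Gbp4 and of the lower genes Ffar2 and Emcn. CACGTG is also found in windows of the lower genes Per1 and Cry1 and of the higher genes Klf4 and P2ry12. The windows lie at chr3:87263475-87263774 on the minus strand for Fcrls, chr6:38918736-38919035 on the plus strand for Tbxas1 and chr3:95882179-95882478 on the minus strand for Ciart, and capitals mark those letters on either strand.
Fcrls: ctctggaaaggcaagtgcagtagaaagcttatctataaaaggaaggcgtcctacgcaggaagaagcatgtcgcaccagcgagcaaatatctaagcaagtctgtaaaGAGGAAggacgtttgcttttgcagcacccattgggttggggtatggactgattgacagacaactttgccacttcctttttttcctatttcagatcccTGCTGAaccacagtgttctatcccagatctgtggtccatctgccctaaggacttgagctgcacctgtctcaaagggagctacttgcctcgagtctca
Tbxas1: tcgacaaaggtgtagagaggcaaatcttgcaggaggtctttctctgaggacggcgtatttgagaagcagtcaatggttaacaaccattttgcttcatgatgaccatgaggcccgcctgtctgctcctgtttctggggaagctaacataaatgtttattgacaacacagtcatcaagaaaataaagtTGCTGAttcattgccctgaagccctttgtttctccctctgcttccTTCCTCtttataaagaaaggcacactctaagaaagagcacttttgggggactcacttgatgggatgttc
Ciart: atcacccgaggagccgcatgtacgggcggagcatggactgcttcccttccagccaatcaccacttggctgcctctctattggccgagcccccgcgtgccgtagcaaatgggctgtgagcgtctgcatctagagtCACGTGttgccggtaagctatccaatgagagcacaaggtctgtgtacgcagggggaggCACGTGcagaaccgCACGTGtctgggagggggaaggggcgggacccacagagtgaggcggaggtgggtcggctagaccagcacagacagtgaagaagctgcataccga
In Fcrls the PU.1 letters begin 144 bases and the MAF letters 47 bases before the start. In Tbxas1 the MAF letters begin 64 bases before the start and the PU.1 letters, on the opposite strand, 19 bases before it. Ciart held 3 E-boxes, which begin 116, 58 and 44 bases before the start. None of these 3 letter strings overlaps another of the searched motifs there.

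Such letters are common. Of 27025 genes with a window, 31.3% held GAGGAA, 21.7% TGCTGA and 8.09% CACGTG on either strand. Among the called genes, the 300 of each direction with the largest change in the mouse that changed less were taken. They gave 224 higher and 212 lower genes with a window. GAGGAA was held by 41.5% of these higher genes and 37.3% of the lower, against 31.2% of the 10200 tested genes with a window. The C/EBP letters TTGCNNAA were held by 15.6% and 17.5%, against 10.5% of tested genes, and the AP-1 letters TGACTCA by 7.14% and 11.3%, against 4.94%. CACGTG was held by 8.93% and 9.43%, against 11.5%, and TGCTGA by 19.6% and 22.2%, against 18.5%. The NF-kB motif was held by 24.6% and 19.3%, against 19.7%, and the CRE letters TGACGT by 8.48% and 8.49%, against 13.1%. The sets had 1.34 and 1.35 windows per gene, against 1.28 for tested genes, which raises the chance of a match slightly.

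Ion channels set the membrane potential and ion content of a cell. Of 64 tested genes with channel symbols, 18 (28.1%) were called higher and 4 (6.25%) lower, beside 13.6% and 14.6% of all genes, the shares against which each family below is to be read. One of the 18, Kcnq1ot1, is a noncoding RNA that was matched by its symbol. P2rx4, an ATP-gated cation channel, was at 110.3 and 106 CPM in T1-binding cells and 60.6 and 48.8 CPM in T1-non-binding cells, with log2 ratios of 0.86 and 1.12. Trpv4, a calcium-permeable channel that responds to swelling, was at 17.3 and 11.96 CPM in T1-binding cells and 7.73 and 4.65 CPM in T1-non-binding cells. Tmem206, a proton-activated chloride channel, was at 27.6 and 24.4 CPM in T1-binding cells and 11.8 and 12.8 CPM in T1-non-binding cells. All 3 were higher in both mice without overlap, as were 23.5% of all tested genes, and Trpv4 and Tmem206 were chosen after their values were seen. Kcna3, a voltage-gated potassium channel, and Piezo1, a mechanically gated channel, had smaller log2 ratios in mouse 1 (0.63 and 0.45) than in mouse 2 (1.18 and 0.55). Among the lower channels, Trpm2, a cation channel opened by oxidative stress, was at 22.8 and 19.0 CPM in T1-binding cells and 37.4 and 30.4 CPM in T1-non-binding cells. Library totals gave 22 higher and 2 lower.

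G protein-coupled receptors for nucleotides, lipids and metabolites, with the numbered orphan receptors, were called in both directions: of 65 tested, 18 (27.7%) were called higher and 12 (18.5%) lower, beside 13.6% and 14.6% of all genes, and 26 and 7 under library totals. P2ry6, a receptor for UDP, was at 78.4 and 105 CPM in T1-binding cells and 44.6 and 47.3 CPM in T1-non-binding cells. P2ry12, a receptor for ADP known from platelets and microglia, was at 19.7 and 18.3 CPM in T1-binding cells and 10.7 and 8.01 CPM in T1-non-binding cells. Gpr34, a lysophosphatidylserine receptor, was at 23.2 and 17.6 CPM in T1-binding cells and 9.13 and 8.96 CPM in T1-non-binding cells. Gpr183, which guides cells along oxysterols, and Cysltr1, a receptor for cysteinyl leukotrienes, had log2 fold changes of 0.94 and 0.96. The lower receptors included the most abundant of the family, Hcar2, the niacin and hydroxybutyrate receptor, at 2559.7 and 1232 CPM in T1-binding cells and 5754 and 3092 CPM in T1-non-binding cells. Gpr97, an adhesion-type receptor of granulocytes, was at 55.5 and 28.8 CPM in T1-binding cells and 119 and 76.1 CPM in T1-non-binding cells. S1pr4 and Ffar2, receptors for sphingosine phosphate and short-chain fatty acids, were called lower at levels of 2.64 CPM or less in every library.

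Solute carriers, the largest family of membrane transporters, had 58 of 227 called higher and 34 lower. Beside Slco2b1 and Slc7a8, Slc7a7, a carrier of cationic amino acids, was at 60.5 and 47.9 CPM in T1-binding cells and 30.3 and 24.4 CPM in T1-non-binding cells. Slc2a3, the glucose transporter GLUT3, was lower, at 379 and 197 CPM in T1-binding cells and 858 and 506 CPM in T1-non-binding cells. Slc40a1, the iron exporter ferroportin, was at 146 and 82.7 CPM in T1-binding cells and 345 and 197 CPM in T1-non-binding cells, lower in both mice. It is also among the usual macrophage markers called lower. Some other families share members with the marker lists too, so their counts are not separate from those lists. Under RLE factors the solute carriers were nearly even, at 46 higher and 41 lower, and under library totals 87 and 25. Among ABC transporters, 10 of 36 were called higher and 4 lower, and 17 and 2 under library totals. Abcc3, an exporter of organic anions, was at 117 and 92.9 CPM in T1-binding cells and 57.3 and 32.9 CPM in T1-non-binding cells. Abcg1, a cholesterol exporter, fell by 0.44 on the log2 scale, with populations that overlapped across mice.

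Sphingolipid enzymes build and break down ceramide and its relatives, in part in lysosomes. Of 35 tested, 13 (37.1%) were called higher and 4 (11.4%) lower, with median log2 ratios of 0.37 in mouse 1 and 0.31 in mouse 2, against 0.03 and 0.00 over all genes. Library totals gave 24 higher and 3 lower. Hexa, a subunit of lysosomal hexosaminidase, was at 406 and 406 CPM in T1-binding cells and 279 and 258 CPM in T1-non-binding cells, and Asah1, acid ceramidase, at 312 and 285 CPM in T1-binding cells and 193 and 183 CPM in T1-non-binding cells. For both genes the 2 mice of a population differed by less than the populations did. Sgms2, a sphingomyelin synthase, was lower, at 489 and 229.96 CPM in T1-binding cells and 911 and 496 CPM in T1-non-binding cells.

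Glycosyltransferases and sulfotransferases, which build the sugar chains of the cell surface, had 30 of 88 called higher (34.1%) and 13 lower (14.8%), and 39 and 6 under library totals. St6gal1, which adds sialic acid in alpha-2,6 linkage, was at 40.1 and 32.5 CPM in T1-binding cells and 17.5 and 16.1 CPM in T1-non-binding cells. St3gal6, which adds it in alpha-2,3 linkage, was lower, at 114 and 77.2 CPM in T1-binding cells and 228 and 171 CPM in T1-non-binding cells. Xylt2, which starts proteoglycan chains, had log2 ratios of 0.88 and 0.77. Of 13 tested proteoglycan core proteins, 3 were called higher and 3 lower, and 4 and 2 under library totals. Sdc3, syndecan 3, was at 530.3 and 414 CPM in T1-binding cells and 271 and 192 CPM in T1-non-binding cells. Srgn, serglycin, the proteoglycan of granules, was at 6057 and 3658 CPM in T1-binding cells and 12349 and 7475 CPM in T1-non-binding cells, a log2 ratio of -1.03 in each mouse.

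**Figure D3:**
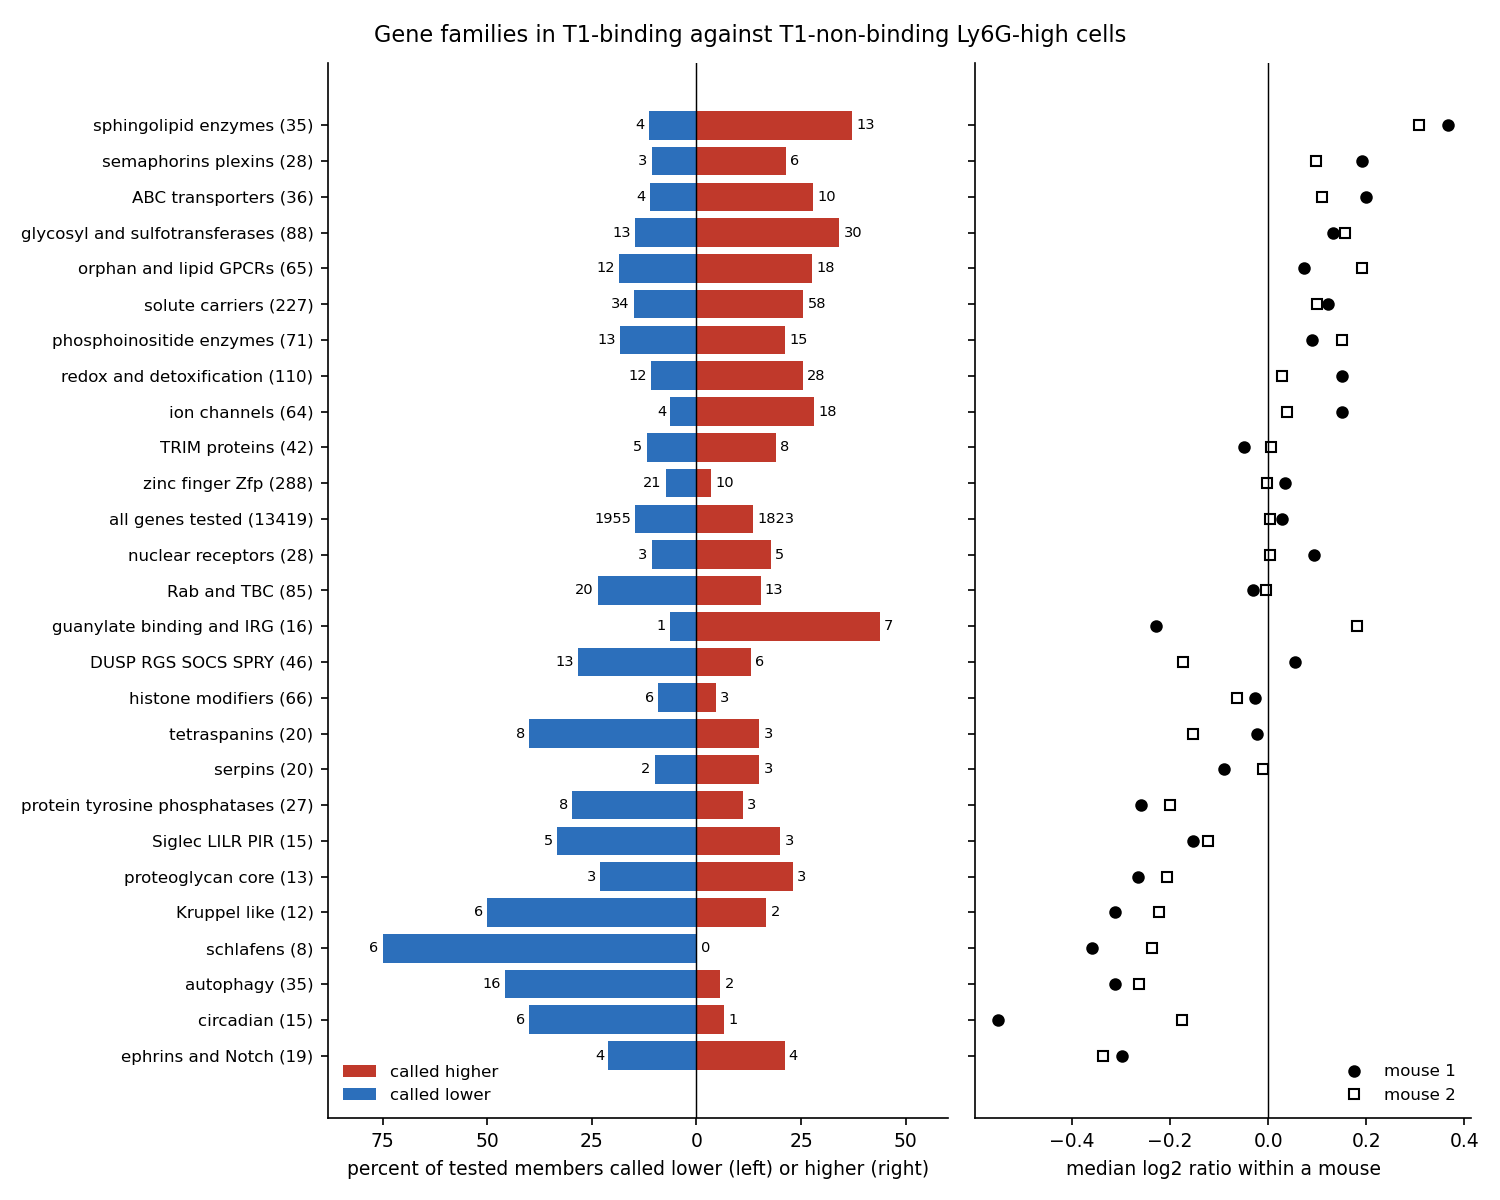
Left, percent of the tested members of each gene family called lower (blue, to the left) or higher (red, to the right) in T1-binding cells, with the number called beside each bar and the number tested in brackets. Right, median log2 ratio of T1-binding over T1-non-binding cells in mouse 1 (filled circles) and mouse 2 (open squares); sphingolipid enzymes stand highest at 0.37 and 0.31, and circadian genes reach -0.55 and -0.18.

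Genes of autophagy, by which a cell encloses and digests its own contents, were mostly lower where they were called. Of 35 tested, 2 were called higher and 16 lower (45.7%), beside 13.6% and 14.6% of all genes, with median log2 ratios of -0.31 in mouse 1 and -0.26 in mouse 2. Optn, a receptor that brings cargo to autophagosomes, was at 35.8 and 17.0 CPM in T1-binding cells and 70.7 and 46.3 CPM in T1-non-binding cells. Atg2a, which transfers lipids to the growing membrane, was at 184 and 95.3 CPM in T1-binding cells and 377 and 204 CPM in T1-non-binding cells. Gabarap and Map1lc3b, the ubiquitin-like proteins that coat that membrane, had fitted log2 fold changes of -0.64 and -0.61. Atg12, a further ubiquitin-like protein of the pathway, fell by 0.70 on the log2 scale, and Tfeb, a transcription factor of lysosomal and autophagy genes, by 0.60. The cargo receptor Sqstm1 was at 1483 and 1056 CPM in T1-binding cells and 2024 and 1458 CPM in T1-non-binding cells, which overlap across mice but not within one. Atg4a, a protease that processes the coat proteins, and Ulk2, a kinase that starts the process, were the 2 called higher, with log2 fold changes of 0.41 and 0.31. Under RLE factors 0 and 18 of the 35 were called by edgeR, and under library totals 3 and 8.

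The circadian clock is a loop in which CLOCK and its partner switch on their own repressors. Of 15 tested clock genes, 1 was called higher and 6 lower (40.0%, beside 14.6% of all genes), and 2 and 5 under library totals. Ciart changed most, as given above. Per2, a repressor of the loop, was at 21.6 and 13.2 CPM in T1-binding cells and 36.9 and 23.2 CPM in T1-non-binding cells. Per1 was at 76.2 and 69.6 CPM in T1-binding cells and 136 and 99.6 CPM in T1-non-binding cells. Cry1, their partner, was at 39.5 and 23.6 CPM in T1-binding cells and 59.8 and 32.6 CPM in T1-non-binding cells, with log2 ratios of -0.60 and -0.47 inside the mice. Nfil3 and Bhlhe40, repressors that also act in myeloid and lymphoid cells, fell by 0.78 and 0.62 on the log2 scale. Clock was the 1 called higher, at a log2 fold change of 0.36 (adjusted p = 0.040 by the same edgeR test), and it was not called under RLE factors, by DESeq2 or by limma-voom.

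**Figure D4:**
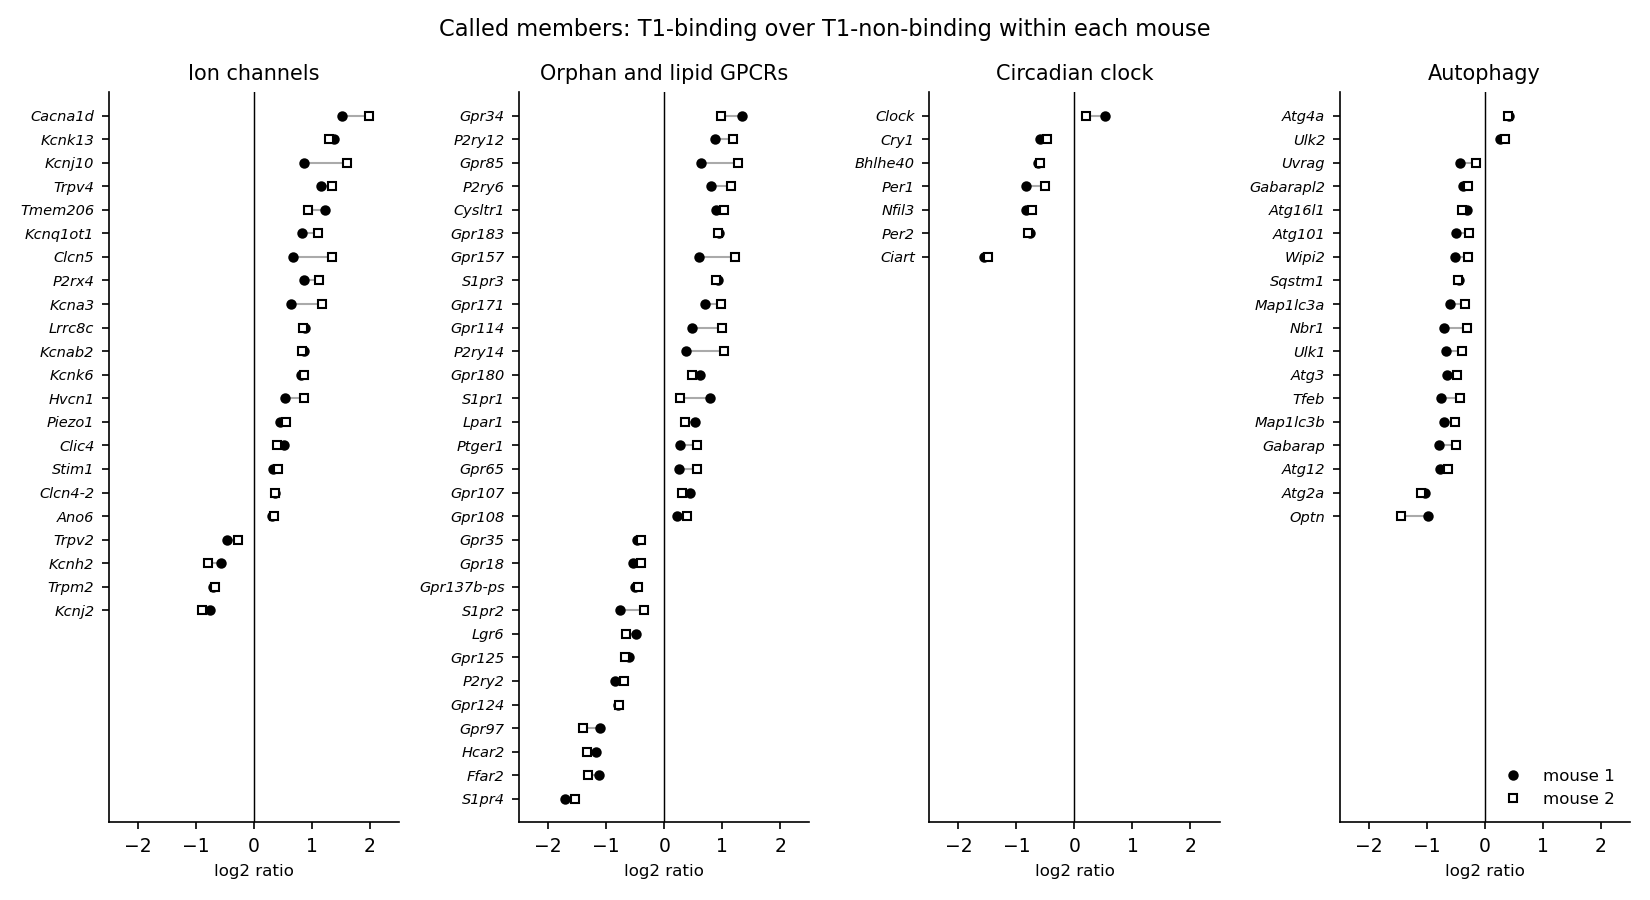
Log2 ratio of T1-binding over T1-non-binding cells in mouse 1 (filled circles) and mouse 2 (open squares) for the called members of 4 families, with a grey line joining the mice. Of the 22 called channels, 18 lie right of 0, and of the 7 called clock genes, 6 lie left of it, with Ciart at -1.55 and -1.49.

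Among the schlafens, regulators of proliferation and translation in immune cells, 0 of 8 were called higher and 6 lower by edgeR. Slfn1 was at 159 and 112 CPM in T1-binding cells and 325 and 219 CPM in T1-non-binding cells. Slfn4 was at 187 and 58.6 CPM in T1-binding cells and 361 and 193 CPM in T1-non-binding cells, with log2 ratios of -0.95 and -1.72, so that the mice differed in size but not in sign. The other 4 had fitted log2 fold changes of -0.38 or closer to 0, and under library totals 2 of the 8 were called. The members of this cluster resemble each other, so their counts may be shared.

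Kruppel-like factors, zinc finger transcription factors, had 2 of 12 called higher and 6 lower. Klf2, linked to quiescence of leukocytes and endothelium, was at 267 and 192 CPM in T1-binding cells and 570 and 374 CPM in T1-non-binding cells. Klf4, linked to monocytes, was at 203 and 162 CPM in T1-binding cells and 151 and 137 CPM in T1-non-binding cells. The negative regulators of signalling grouped here as dual-specificity phosphatases, RGS, SOCS, Sprouty and Spred proteins had 6 of 46 called higher and 13 lower. Dusp1, an immediate-early phosphatase of MAP kinases, was at 4107 and 2342 CPM in T1-binding cells and 7900 and 4072 CPM in T1-non-binding cells. Its populations overlapped across mice, while its log2 ratios inside them were -0.94 and -0.80. Under library totals this group turned to 12 higher and 7 lower.

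Nuclear receptors showed a split inside 1 subfamily. Nr4a1 and Nr4a3 were lower, with log2 ratios of -0.59 and -0.51 for Nr4a1 and -0.84 and -0.54 for Nr4a3 in mouse 1 and mouse 2. Nr4a2 was higher, at 259 and 174 CPM in T1-binding cells and 177 and 119.7 CPM in T1-non-binding cells, with log2 ratios of 0.55 and 0.54. These signs were the same under library totals and RLE factors, and all 3 genes overlapped across mice. Vdr, the vitamin D receptor, was at 70.5 and 67.8 CPM in T1-binding cells and 49.99 and 40.0 CPM in T1-non-binding cells. In the whole family 5 of 28 were called higher and 3 lower, with 7 and 2 under library totals and 3 and 3 under RLE factors.

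Semaphorins, which guide cells and axons, were tested together with their plexin and neuropilin receptors and the plexin domain proteins. Of the 28, 6 (21.4%) were called higher and 3 (10.7%) lower, beside 13.6% and 14.6% of all genes, and 19 were not called. Library totals gave 9 and 2, and RLE factors 5 and 4. Among these few calls, the 6 higher were plexins, neuropilins and plexin domain proteins (Plxnb3, Plxdc1, Nrp1, Plxdc2, Plxnb2 and Nrp2). The 3 lower were semaphorins (Sema6a, Sema4d and Sema6b), and a difference between these kinds of protein was not tested. Nrp1, neuropilin 1, was at 143 and 124 CPM in T1-binding cells and 57.05 and 59.7 CPM in T1-non-binding cells. Plxdc2, a plexin domain protein, was at 66.7 and 67.2 CPM in T1-binding cells and 33.9 and 27.9 CPM in T1-non-binding cells. Sema4d, a membrane semaphorin of leukocytes, was at 229 and 141 CPM in T1-binding cells and 412 and 206 CPM in T1-non-binding cells. Among sialic acid-binding and leukocyte immunoglobulin-like receptors, 3 of 15 were called higher and 5 (33.3%) lower, beside 13.6% and 14.6% of all genes, and the balance turned to 6 higher and 3 lower under library totals. Lilra5 was at 23.0 and 28.9 CPM in T1-binding cells and 11.6 and 11.1 CPM in T1-non-binding cells, and Siglece at 36.9 and 34.8 CPM in T1-binding cells and 83.0 and 52.6 CPM in T1-non-binding cells.

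Guanylate-binding proteins and immunity-related GTPases, which act at vacuoles of pathogens and answer to interferon, had 7 of 16 called higher and 1 lower, with 4 and 1 under RLE factors and 7 and 0 under library totals by edgeR. The median of the list had the other sign in mouse 1, at -0.23, and was 0.18 in mouse 2, so the count and the median differ. The gene listed as Gbp6 (ENSMUSG00000079362) was at 23.3 and 36.0 CPM in T1-binding cells and 14.6 and 21.1 CPM in T1-non-binding cells. GENCODE M21 names this ID Gm43302, and its exons overlap those of Gbp10 and Gbp6 on the same strand, so the value cannot be assigned to Gbp6 alone. Gbp4 and Gbp8 had fitted log2 fold changes of 0.46 and 0.84. Igtp was the 1 called lower, at 54.3 and 63.5 CPM in T1-binding cells and 77.0 and 72.4 CPM in T1-non-binding cells. Gbp genes resemble each other, and their counts may be shared.

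Redox and detoxification enzymes had 28 of 110 called higher and 12 lower, but 10 and 10 by DESeq2 with mouse as a term, 18 and 16 under RLE factors and 40 and 5 under library totals. Ptgr1, a prostaglandin reductase, was at 24.3 and 25.4 CPM in T1-binding cells and 12.3 and 10.8 CPM in T1-non-binding cells. Cyp4f18, which inactivates leukotriene B4 in mouse neutrophils, was at 405 and 223 CPM in T1-binding cells and 854 and 582 CPM in T1-non-binding cells. Rab GTPases and TBC proteins, which steer vesicles, had 13 of 85 called higher and 20 lower. Rab44, a large Rab of granulocytes and mast cells, was at 126 and 68.3 CPM in T1-binding cells and 263 and 169 CPM in T1-non-binding cells. Under library totals that family turned to 22 higher and 13 lower. Tetraspanins, membrane organisers, had 3 of 20 called higher and 8 (40.0%) lower, beside 13.6% and 14.6% of all genes, but 5 and 6 under library totals. Tspan13 was at 187 and 137 CPM in T1-binding cells and 419 and 258 CPM in T1-non-binding cells.

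The other families are given by their counts alone, higher first. Phosphoinositide enzymes had 15 and 13 of 71, protein tyrosine phosphatases 3 and 8 of 27, and TRIM proteins 8 and 5 of 42. Histone modifiers had 3 and 6 of 66 and numbered zinc finger genes 10 and 21 of 288, both below the shares of all genes in each direction. Serpins had 3 and 2 of 20, and ephrin and Notch genes 4 and 4 of 19. The balance in several of these depended on the scaling. Under library totals it turned to 10 higher and 4 lower for histone modifiers, 38 and 9 for zinc finger genes and 5 and 3 for tyrosine phosphatases. Library totals gave 32 and 7 for phosphoinositide enzymes, 11 and 3 for TRIM proteins, 5 and 1 for serpins and 4 and 2 for ephrin and Notch genes, which RLE factors turned to 2 and 5.

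Noncoding genes were called lower more often than higher. Of 223 tested long intergenic noncoding RNAs, 8 (3.59%) were called higher and 44 (19.7%) lower, and of 194 antisense genes 3 (1.55%) and 23 (11.9%). Protein-coding genes gave 1789 higher (14.6%) and 1816 lower (14.8%) of 12253. Processed pseudogenes gave 2 and 29 of 390, with the reservation that their reads can come from the parent gene.

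Markers of other cell types were read as lists, of which the fibroblast markers given above had the highest sums. Mast cell genes were higher in T1-binding cells of both mice: Cma1, a chymase, at 6.06 and 7.30 CPM against 1.92 and 1.52 CPM in T1-non-binding cells, and Tpsb2, a tryptase, at 15.8 and 14.7 CPM against 7.88 and 5.89 CPM. Cpa3 and Mcpt4 had log2 fold changes of 1.39 and 1.23, and Mcpt8 and Prss34 of the same list were at 0 in all 4 libraries. Of the 9 tested members of that list of mast cells, basophils and eosinophils, 4 were called higher and 0 lower by edgeR. Their sums were 57.3 and 46.9 CPM in T1-binding cells of mouse 1 and mouse 2 and 39.9 and 26.2 CPM in T1-non-binding cells. Ppbp, a chemokine of platelets, was at 188 and 56.8 CPM in T1-binding cells and 82.0 and 25.3 CPM in T1-non-binding cells. The erythroid and platelet list as a whole had 1 called higher and 1 lower of 9. Its sums were 259 and 92.3 CPM in T1-binding cells of mouse 1 and mouse 2 and 173 and 68.0 CPM in T1-non-binding cells. Of 10 endothelial markers 1 was called higher and 4 lower, and Emcn among these had at most 0.07 CPM in T1-binding libraries, below the limit of a 0 count, against 1.504 and 1.35 CPM in T1-non-binding libraries. Dendritic markers gave 3 and 0 of 16 by edgeR, T and NK markers 2 and 1 of 20, and B and plasma cell markers 1 and 1 of 10. Sums of the dendritic markers were 264 and 314 CPM in T1-binding cells of mouse 1 and mouse 2 and 234 and 282 CPM in T1-non-binding cells. The part of these cells in the other results was not tested.

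Among genes whose sign differed between the mice and that reached 10 CPM in a library, the 4 of each direction with the largest change in the mouse that changed less were below 2-fold in both mice. Clca1 (Clca3a1 in GENCODE M21), Gpatch4, Mras and Fst were higher in T1-binding cells of mouse 1 and lower in those of mouse 2, and Fstl1, Mllt10, Mmp3 and Smyd3 the reverse. Mmp3, stromelysin 1, was at 18.7 and 62.4 CPM in T1-binding cells and 27.4 and 42.5 CPM in T1-non-binding cells, with log2 ratios of -0.55 and 0.55. Fst, follistatin, was at 22.2 and 15.5 CPM in T1-binding cells and 14.1 and 20.9 CPM in T1-non-binding cells, with log2 ratios of 0.65 and -0.43. With 1 library per population and mouse these opposite ratios have no replicate. None of the 8 genes passed the paired test (smallest adjusted p = 0.584 by edgeR). That test looks for a change shared by the mice, so genes picked for opposite signs could hardly pass it.

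**Figure D5:**
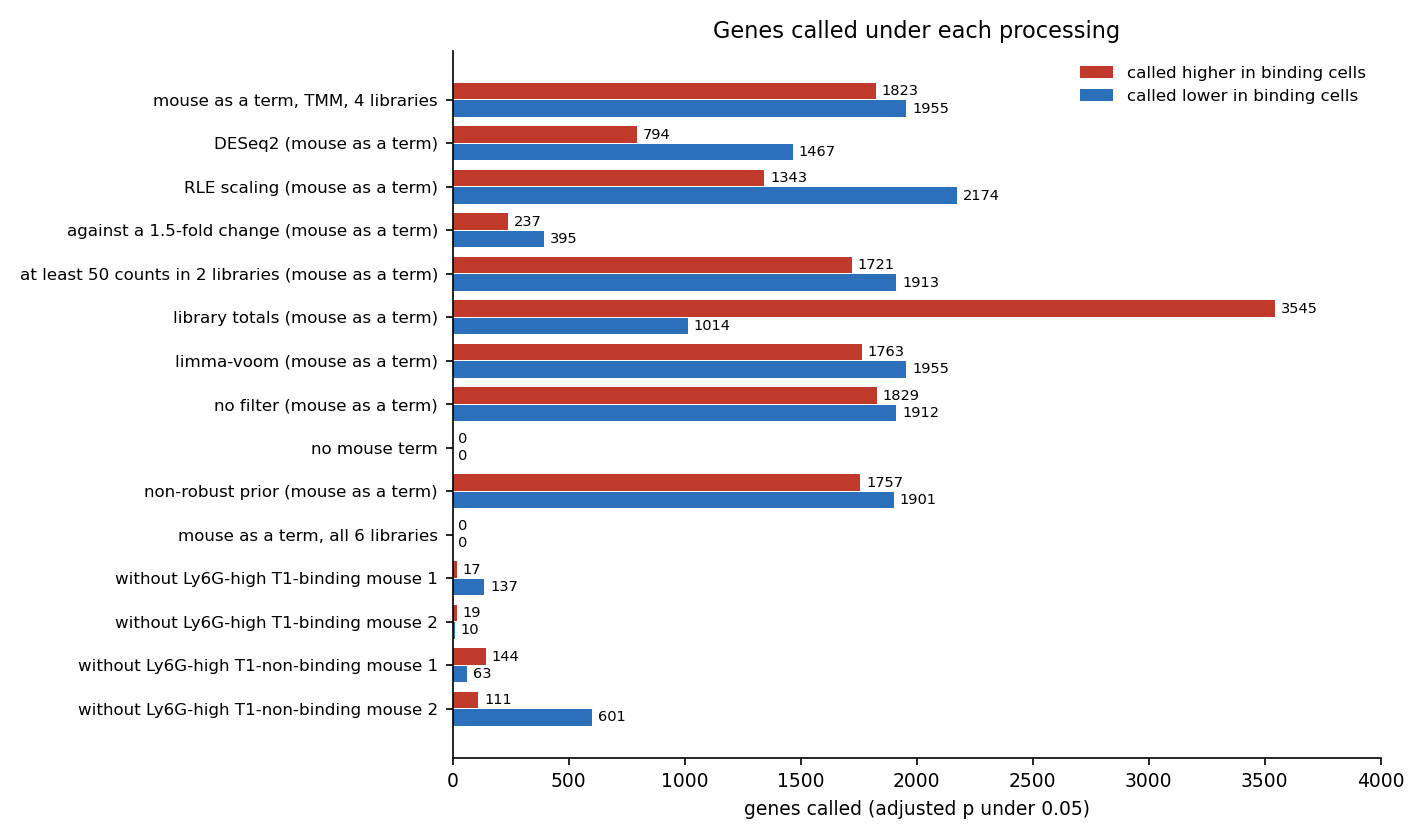
Number of genes called higher (red) and lower (blue) in T1-binding cells under each processing, at an adjusted p under 0.05, with all 4 Ly6G-high libraries unless named. With mouse as a term the counts run from 237 to 3545 higher and 395 to 2174 lower except over all 6 libraries, where both are 0, as they are without a mouse term, and the 4 fits that leave out a library have no mouse term.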

How the data were processed

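The authors deposited raw read counts per gene, as whole numbers, and FPKM values, which the authors derived from them and which were not used here. The submitters' processing notes name TopHat, STAR 2.5, HTSeq 0.6.1 and build mm10. The annotation and the strand used in counting are not given in the sources used here. Genes were kept by filterByExpr (13419 of 35275), given TMM scaling factors and fitted in edgeR 4.0.16 (R 4.3.3, robust quasi-likelihood, terms for mouse and population) on 4 libraries. P-values were adjusted by Benjamini-Hochberg over all tested genes. Within-mouse log2 ratios used TMM-scaled CPM with a prior count of 2. The pairing comes from the mouse number in the labels, and deviations from the population means correlated at 0.58 across genes between libraries of the same mouse. With 2 mice, p-values set the mean within-mouse change against how far it differed between these animals, pooled with the spread shared across genes. They rest on these 2 animals only. Coordinates came from GENCODE M21 (13352 of 13419 IDs matched) and promoter windows from RefSeq. Exons of Bhlhe40, Cyp4f18, Dusp1, Fst, Hexa, Map1lc3b, Mllt10, Optn, P2ry12, Piezo1, Sdc3, Slc7a7, Sqstm1, St3gal6 and St6gal1 overlap genes on the opposite strand, and those of Gbp4, Gbp8, Igtp, Itgam, Nrp1 and Trpm2 genes on the same strand, so their counts may be shared.

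The comparison, gene lists and families were chosen with earlier results of these data known. Named genes were 5 sorting or lineage antigens, the 15 genes per direction with the largest change in the mouse that changed less, up to 2 called genes per direction and family with the smallest p and at least 5 CPM, and up to 4 genes per direction with opposite signs in the mice. Other named genes, among them Trpv4, Tmem206, P2ry12, Gpr34, Per1, Per2, Cry1, Gabarap, Hexa, Asah1, Slc7a7, Tfeb and the mast cell genes, were chosen after their values were seen. Some items that these rules name are not reported here. Predicted genes, pseudogenes, histone, ribosomal, mitochondrial and antigen receptor genes were passed over. Alternatives were other scalings, filters and tools (DESeq2 1.42.0, limma 3.58.1), no mouse term, all 6 libraries and each library left out.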

Additional observations from a re-analysis of the deposited data

How the results depend on the processing

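The paired calls depend on the mouse term. Without a replicate block edgeR called 0 genes higher and 0 lower, and with the replicate block over all 6 libraries also 0 and 0. DESeq2 with the block called 794 higher (1467 lower, with 1561 adjusted p-values missing), library totals 3545 and 1014, and a test against a 1.5-fold change 237 and 395. Leaving out 1 library, which left 3 and allowed no mouse term, gave 17 to 144 higher and 10 to 601 lower, with the lone library of a population assumed to vary like the others. RLE factors, limma-voom, a non-robust prior, no filter and a minimum of 50 counts in 2 libraries stayed within 1.5 times of the counts (1343 to 1829 higher and 1901 to 2174 lower).

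Genes at least 2-fold higher in each mouse numbered 348 with library totals, 103 with a prior count of 10, 99 with at least 50 counts, 685 at 1.5-fold and 11 at 3-fold. Genes at least 2-fold lower numbered 130, 197 with at least 50 counts, 965 at 1.5-fold and 26 at 3-fold, with 204 at a prior count of 10. Opposite signs numbered 43 at a prior count of 0.5, 7 at a prior count of 10, 1 with at least 50 counts, 156 at 1.5-fold and 5 at 3-fold. With single libraries left out, the log2 fold change of Itgam ran from -0.14 to 0.70 (below 0 without the T1-binding library of mouse 1 or the T1-non-binding library of mouse 2) and that of Jag1 from -0.19 to 1.08 (below 0 without the T1-binding library of mouse 1); the cause was not tested. Among the genes named in the text, RLE factors ended the calls of Itgam, Clock, Atg4a and Ulk2, DESeq2 these and those of Ffar2 and Klf4, limma-voom that of Clock, and library totals those of Abcg1, Cry1, Ffar2, Igtp and Tfeb, all with the same direction. Counts in single libraries limit genes under about 1 CPM.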
